A study of Mus musculus with 12 samples.

Results

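The 10 genes described here encode receptors, and 1 bridging protein, with which phagocytes bind dying cells and modified lipoproteins: the scavenger receptors Cd36, Msr1, Marco and Lrp1, the receptor kinases Axl, Mertk and Tyro3, the TIM family receptors Havcr2 and Timd4, and the secreted adaptor Mfge8. They were chosen by name from the 22180 genes measured, with earlier results of these data known, and each was read by 1 probe set. None of them was used to sort the cells. RNA was measured on 12 Affymetrix whole-transcript arrays from 5 sorted populations of dendritic cells (DCs) and DC progenitors of steady-state C57Bl/6 mice.

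All 5 populations came from mice of the same genotype, Zbtb46GFP/+, with 1 copy of Zbtb46, which encodes a transcription factor of classical DCs, carrying a GFP reporter. No population without the reporter was used here. Bone marrow gave 3 populations: the common DC progenitor, or CDP, on 3 arrays, and the committed progenitors pre-CD8 DC and pre-CD4 DC on 2 arrays each. Spleen gave the CD24 DC, of the cDC1 lineage, on 3 arrays and the CD172a DC, of the cDC2 lineage, on 2. Progenitors thus came only from marrow and mature DCs only from spleen, so stage and tissue cannot be told apart. The CDP gate took lineage-negative cells with intermediate CD117, positive for CD135 and CD115 and without CD11c or MHC class II. The pre-CD8 gate took cells with intermediate CD117 and MHC class II, with CD135 and CD11c and without Siglec H. The pre-CD4 gate took CD117-low cells with CD135, CD115 and CD11c and without MHC class II. CD172a DCs were CD11c, MHC class II and CD172a positive. CD24 DCs were CD11c and CD24 positive and CD172a negative, and their label gives them as MHC class II negative. Cells were taken from 8 to 10 littermates, whose ages the labels do not give, and sorted to above 95% purity. The labels do not say whether the arrays of a population came from separate pools of mice, so p-values reflect the spread among these arrays alone, and that spread may be technical.

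Clearance of dying cells, or efferocytosis, starts when a phagocyte recognises signals on the dying cell, chiefly phosphatidylserine on the outer membrane. Some receptors, such as the TIM family, bind that lipid directly. Axl, Mertk and Tyro3 bind it through bridging proteins such as Gas6, and integrins bind it through the product of Mfge8. Scavenger receptors such as CD36 take up oxidised lipoproteins and also bind dying cells. In the spleen the cDC1 lineage is known for taking up dying cells and presenting their antigens to CD8 T cells.

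Cd36 was low in CDP and pre-CD4 DCs, intermediate in pre-CD8 and CD172a DCs and highest in CD24 DCs. Havcr2 and Timd4 were higher in both spleen populations than in any marrow population. Axl and Lrp1 were higher in CD172a DCs than in CD24 DCs. Over the 5 populations the group means spanned 6.70 on the log2 scale for Cd36 and 5.42 for Havcr2, 1.48 for Lrp1, 1.32 for Mfge8, 1.25 for Timd4 and 1.04 for Axl. The spans of Marco (0.85), Msr1 (0.80), Mertk (0.62) and Tyro3 (0.53) were below 1.

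Cd36, Havcr2 and Timd4 were each higher in both spleen populations than in CDP, and the 250 bases before their annotated starts are shown because they are the 3 members called higher in both. The sequences are RefSeq's, of the mouse assembly GRCm38.p6, and run 5′ to 3′ on the gene's own strand. Capitals mark matches, on either strand, to any of 6 short motifs: GAGGAA (PU box), the ETS-IRF composite element (GGAA, any 2 bases, then GAAA), the IRF-type repeat (GAAA, any 2 bases, then GAAA, which can overlap the composite element), TGANTCA (AP-1 site), TGTGGT (Runx site) and AGGTCA (nuclear receptor half-site).
Cd36, chr5:17835897-17836146, minus strand: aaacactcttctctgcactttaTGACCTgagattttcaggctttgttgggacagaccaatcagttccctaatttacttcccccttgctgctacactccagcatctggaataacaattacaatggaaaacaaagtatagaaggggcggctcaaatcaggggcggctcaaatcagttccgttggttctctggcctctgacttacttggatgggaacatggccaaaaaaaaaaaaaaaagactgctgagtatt
Havcr2, chr11:46454681-46454930, plus strand: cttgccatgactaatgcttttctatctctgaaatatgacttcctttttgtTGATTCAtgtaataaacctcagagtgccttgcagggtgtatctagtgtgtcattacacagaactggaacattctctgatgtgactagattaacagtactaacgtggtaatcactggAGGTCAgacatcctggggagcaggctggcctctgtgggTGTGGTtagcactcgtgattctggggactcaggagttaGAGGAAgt
Timd4, chr11:46810549-46810798, plus strand: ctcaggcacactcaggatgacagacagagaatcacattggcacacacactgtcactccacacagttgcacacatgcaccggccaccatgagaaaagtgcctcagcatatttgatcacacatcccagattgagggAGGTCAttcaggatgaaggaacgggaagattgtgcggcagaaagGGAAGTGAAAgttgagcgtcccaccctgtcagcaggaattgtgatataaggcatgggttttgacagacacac
The nuclear receptor half-site AGGTCA stood 228 bases before the start of Cd36, on the opposite strand, 84 bases before that of Havcr2 and 116 bases before that of Timd4. It was in 3 of the 9 members' windows for which RefSeq gave a sequence (Msr1 was not matched) and in 14% of 32851 windows of the same length. The ETS-IRF composite element was in the Timd4 window alone among the 9, 72 bases before the start, and in 2.3% of all windows. Havcr2 also held TGATTCA 200 bases before the start, a match to the AP-1 pattern TGANTCA, whose middle base (N) may be any base. That loose pattern was in 6.75% of all windows. The Havcr2 window further held a Runx site 46 bases before the start and a PU box 8 bases before it. The PU box was in 4 of the 9 windows (Axl, Havcr2, Marco and Mfge8) and in 23.3% of all windows. The Runx site was in 2 (Havcr2 and Mfge8) and in 14% of all windows, and the IRF-type repeat was in 0 of the 9 and in 2.98% of all windows. Such matches describe the letters of these windows and do not show that a factor binds there.

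The deposited values are log2 expression values per probe set, and a difference between groups is a log2 difference with its standard error (SE). Differences were tested with limma over all 12 arrays and are said to be called where the Benjamini-Hochberg adjusted p over the 22180 genes is under 0.05. Array means ran from 5.28 to 5.34 and medians from 4.89 to 5.24. Arrays of 1 population correlated at r = 0.925 to 0.987 over 9 pairs, and arrays of different populations at r = 0.858 to 0.976 over 57 pairs. The level below which a transcript is not detected is not known for these values. Values are therefore compared between populations for the same gene and not between genes. In these sorted bulk samples, fewer cells of a type and less RNA per cell cannot be told apart. The mean of 6 cDC1 markers was 9.56 to 10.12 on the pre-CD8 and 10.11 to 10.60 on the CD24 DC arrays, against 5.83 to 5.99 in CDP, 6.49 to 6.63 in pre-CD4 and 7.66 to 8.11 in CD172a DCs. That of 6 cDC2 markers was 6.89 to 6.93 in pre-CD4 and 7.72 to 7.96 in CD172a DCs, against 5.18 to 6.11 in the other populations. The lists include Cd24a and Sirpa, which encode the CD24 and CD172a of the spleen gates. For those genes the spleen levels are no separate check of the labels. The lists did not follow the labels gene by gene: against CDP, 5 of the 6 cDC1 markers were higher in CD172a DCs and 1, Cd24a, was lower, and of the 6 cDC2 markers 4 were higher and 1, Clec10a, was lower. Zbtb46 was at 5.13 in CDP and at 6.42 to 7.05 in the other populations. H2-Ab1, an MHC class II gene, was at 12.19 in CD24 DCs, whose label gives them as MHC class II negative, against 6.59 in CDP. Kit, which encodes the CD117 of the progenitor gates, was at 9.71 in CD24 DCs and 9.70 in CD172a DCs, above its 8.24 in CDP.

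**Figure D1:**
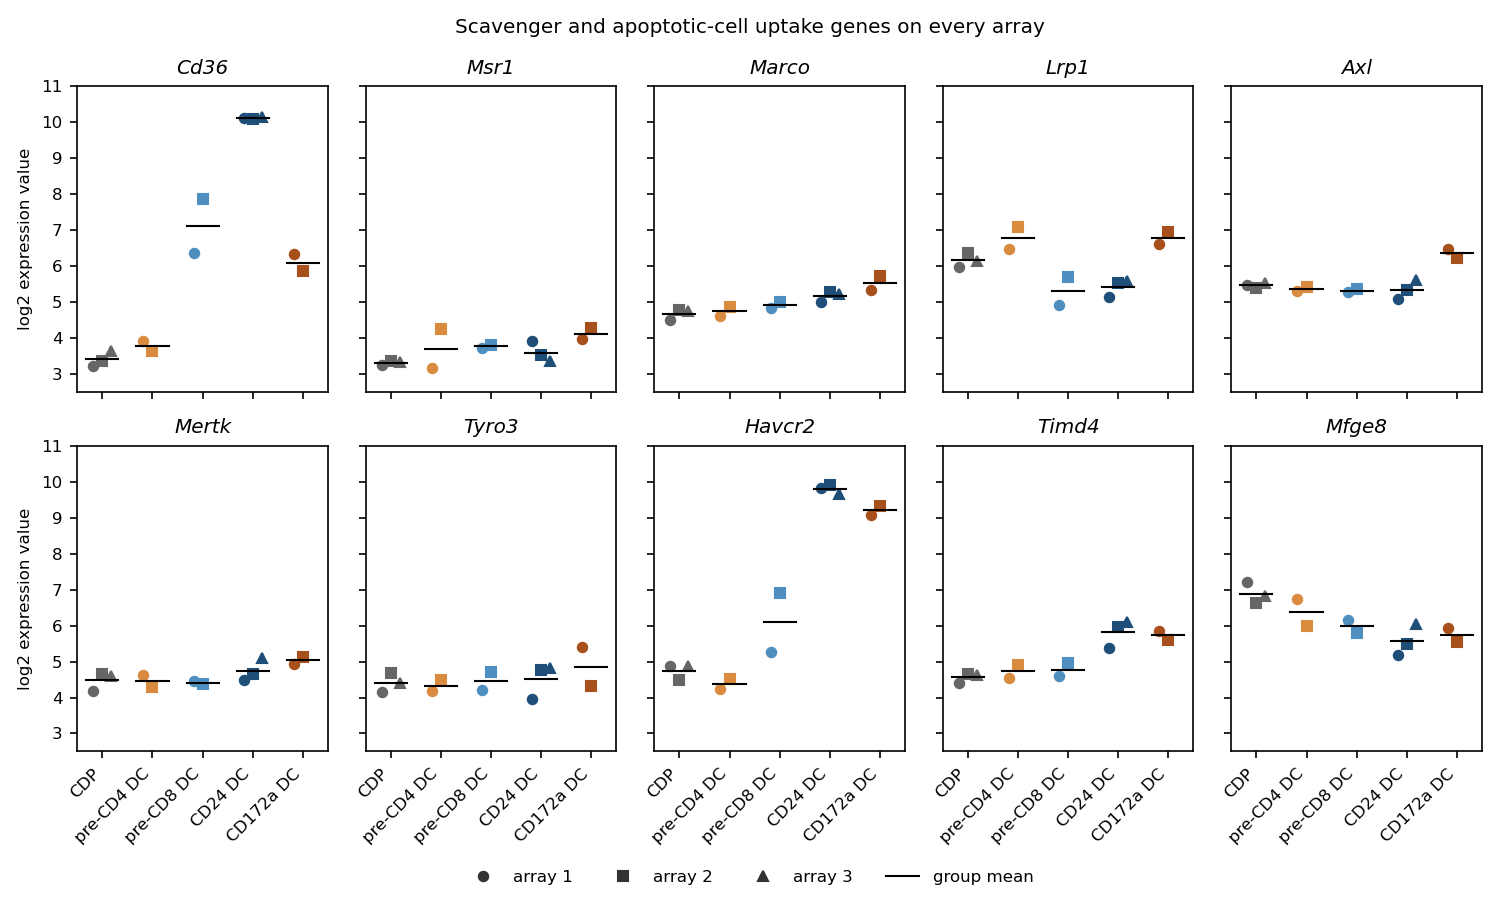
Log2 expression of the 10 genes on each of the 12 arrays, 1 panel per gene, with populations on the horizontal axis, points for arrays and bars for group means. Cd36 and Havcr2 cover the widest ranges, with the CD24 DC arrays of Cd36 between 10.07 and 10.13, and in the panel of Tyro3 every pair of populations overlaps.

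Cd36 encodes a scavenger receptor for oxidised lipoproteins, long-chain fatty acids and dying cells. Its log2 values were 3.20, 3.36 and 3.64 on the CDP arrays, 3.90 and 3.64 in pre-CD4 DCs, 6.37 and 7.84 in pre-CD8 DCs, 10.10, 10.07 and 10.13 in CD24 DCs, and 6.33 and 5.84 in CD172a DCs. Every pre-CD8 and spleen array was above every CDP and pre-CD4 array, and the 3 CD24 DC arrays were above all others. Cd36 was higher in pre-CD8 DCs than in CDP by 3.70 ± 0.34 (SE; 13-fold, limma adjusted p = 2.86e-05) and higher than in pre-CD4 DCs by 3.34 ± 0.37 (10.1-fold, adjusted p = 0.000555). From pre-CD8 to CD24 DCs it was higher by a further 3.00 ± 0.34 (adjusted p = 9.23e-05), so that CD24 DCs exceeded CDP by 6.70 ± 0.30 (104-fold, adjusted p = 9.86e-09). The CDP and pre-CD4 means of Cd36 lie below every array median and the detection level is not known, so folds against them are those of the deposited values only.

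Cd36 was also higher in CD172a DCs than in pre-CD4 DCs, by 2.32 ± 0.37 (limma adjusted p = 0.000989), and than in CDP, by 2.69 ± 0.34 (adjusted p = 8.78e-05). The cDC1 marker list had a higher mean in CD172a DCs too, at 7.66 and 8.11, against 6.63 and 6.49 on the pre-CD4 arrays. Of its 6 genes 4 had a difference above 0, with 3 called higher, and the median difference was 1.63. The 2 others were lower, 1 of them at an unadjusted limma p under 0.05, and 0 were called lower. The part of cDC1 cells in the Cd36 of CD172a DCs was not tested. CD24 DCs exceeded CD172a DCs by 4.02 ± 0.34 (16.2-fold, adjusted p = 1.51e-05). In order of group means the populations ran CD24 DC (10.10 ± 0.03, SD, n = 3), pre-CD8 DC (7.10 ± 1.05, n = 2), CD172a DC (6.09 ± 0.35, n = 2), pre-CD4 DC (3.77 ± 0.18, n = 2) and CDP (3.40 ± 0.22, n = 3). The neighbours pre-CD8 and CD172a DC were not separated (a difference of 1.02 ± 0.37, adjusted p = 0.108), nor were pre-CD4 DC and CDP (0.37 ± 0.34, adjusted p = 0.751). The other neighbouring steps were called. Cd36 was called in 8 of the 10 pairs of populations, and each of these calls was kept without any single array. Without pre-CD8 array 1 the difference between CD172a and pre-CD8 DCs was also called, at -1.76 (adjusted p = 0.00491).

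Msr1 encodes the macrophage scavenger receptor for modified lipoproteins. Its values were 3.25, 3.34 and 3.33 in CDP, 3.16 and 4.23 in pre-CD4 DCs, 3.72 and 3.81 in pre-CD8 DCs, 3.91, 3.51 and 3.34 in CD24 DCs, and 3.95 and 4.26 in CD172a DCs. Both CD172a DC arrays were above every other array but 1, pre-CD4 array 2. Every Msr1 value lies below every array median, and the detection level is not known. No pair of populations was called. The difference between CD172a DCs and CDP was 0.80 ± 0.28 (limma adjusted p = 0.0554), and at the same size it was called without CD24 array 1 (adjusted p = 0.0408), CD24 array 3 (0.0493) or either pre-CD4 array (0.0188).

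Marco encodes a scavenger receptor of the same class as Msr1, known from marginal zone macrophages of the spleen. Its values were 4.49, 4.78 and 4.75 in CDP, 4.61 and 4.85 in pre-CD4 DCs, 4.81 and 4.98 in pre-CD8 DCs, 5.0, 5.28 and 5.21 in CD24 DCs, and 5.33 and 5.70 in CD172a DCs. The 5 spleen arrays were above the 7 marrow arrays. The CDP and pre-CD4 means of Marco lie below every array median, and the detection level is not known. CD172a DCs exceeded CDP by 0.85 ± 0.20 (limma adjusted p = 0.00782) and pre-CD4 DCs by 0.79 ± 0.22 (adjusted p = 0.0316). These 2 of the 10 pairs were called, and no neighbours in the order CD172a, CD24, pre-CD8, pre-CD4 DC and CDP were. The difference from pre-CD4 DCs was no longer called without CD172a array 2 (0.60, adjusted p = 0.186), without pre-CD4 array 1 (0.67, 0.24) or array 2 (0.90, 0.0657) or without CDP array 3 (0.79, 0.051), nor after quantile normalization (0.63, 0.0732). That from CDP was lost without CD172a array 2 (0.66, 0.0917). The difference between CD24 DCs and CDP was called without CD24 array 1 (0.57, 0.045), with dim genes left out (0.49, 0.0415) and in the fit blocked on replicate number (0.49, 0.0346).

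Lrp1 encodes a large endocytic receptor of the LDL receptor family that binds, among many ligands, calreticulin on dying cells. Its values were 5.97, 6.36 and 6.14 in CDP, 6.46 and 7.07 in pre-CD4 DCs, 4.91 and 5.67 in pre-CD8 DCs, 5.12, 5.52 and 5.56 in CD24 DCs, and 6.61 and 6.93 in CD172a DCs. Every pre-CD8 and CD24 DC array was below every array of the other populations. Lrp1 was lower in pre-CD8 than in pre-CD4 DCs, by -1.47 ± 0.30 (limma adjusted p = 0.0385), and lower in CD24 than in CD172a DCs, by -1.37 ± 0.27 (adjusted p = 0.00824). CD24 DCs were also below CDP (-0.75 ± 0.24, adjusted p = 0.0408) and pre-CD4 DCs (-1.36 ± 0.27, adjusted p = 0.00408), and CD172a DCs above pre-CD8 DCs (1.48 ± 0.30, adjusted p = 0.00616). The difference of pre-CD8 DCs from CDP was not called (-0.86 ± 0.27, adjusted p = 0.0991), but was in the fit blocked on replicate number (-0.83, 0.0303). That of CD172a DCs from CDP was not called either (0.61 ± 0.27, adjusted p = 0.124), but was after quantile normalization (0.84, 0.0339).

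In the order of means CD172a DC (6.77 ± 0.23), pre-CD4 DC (6.76 ± 0.43), CDP (6.15 ± 0.19), CD24 DC (5.40 ± 0.24) and pre-CD8 DC (5.29 ± 0.54), the step of Lrp1 from CDP to CD24 DC was the 1 called. Each of these calls was lost without at least 1 array. The difference between pre-CD8 and pre-CD4 DCs was lost without pre-CD4 array 1 (-1.78, limma adjusted p = 0.068), pre-CD4 array 2 (-1.17, 0.357) or pre-CD8 array 1 (-1.09, 0.331). It stayed at -1.47 but missed the threshold in the smaller fit when the array left out was of another population: CDP array 1 (0.0531), 2 (0.0583) or 3 (0.0702), CD24 array 2 (0.0663) or either CD172a array (0.0614). That between CD24 DCs and CDP was lost without CDP array 1 (-0.85, 0.058), 2 (-0.65, 0.133) or 3 (-0.76, 0.0969) or CD24 array 1 (-0.61, 0.0955), 2 (-0.81, 0.0684) or 3 (-0.84, 0.0554), and stayed at -0.75 without either CD172a array (0.0503). That between CD24 and CD172a DCs was lost without CD172a array 2 (-1.21, 0.0902), that between CD24 and pre-CD4 DCs without pre-CD4 array 2 (-1.06, 0.0769), and that between CD172a and pre-CD8 DCs without CD172a array 2 (1.32, 0.0558) or pre-CD8 array 1 (1.09, 0.0972).

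Axl encodes a receptor kinase that binds Gas6, which bridges it to phosphatidylserine. Its values were 5.47, 5.38 and 5.52 in CDP, 5.28 and 5.40 in pre-CD4 DCs, 5.28 and 5.34 in pre-CD8 DCs, 5.07, 5.32 and 5.60 in CD24 DCs, and 6.48 and 6.22 in CD172a DCs. Both CD172a DC arrays were above the 10 others, which lay within 5.07 to 5.60. CD172a DCs exceeded CD24 DCs by 1.02 (CD24 minus CD172a, -1.02 ± 0.20; limma adjusted p = 0.00748), pre-CD4 DCs by 1.01 ± 0.22 (adjusted p = 0.00765), CDP by 0.90 ± 0.20 (0.00505) and pre-CD8 DCs by 1.04 ± 0.22 (0.00807). The 4 other populations, in the order CDP, pre-CD4, CD24 and pre-CD8 DC, were not separated from each other. Without CD172a array 1 all 4 calls were lost, with differences of -0.89 (adjusted p = 0.111), 0.88 (0.0787), 0.77 (0.0683) and 0.91 (0.084) in the order given. The mean of 7 neutrophil markers was 7.06 on CD172a array 1 and 4.56 on array 2, and its part in the Axl values was not tested. The difference from pre-CD4 DCs was also lost without pre-CD4 array 1 (0.95, 0.0762), and that from pre-CD8 DCs without pre-CD8 array 1 (1.01, 0.0686).

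Mertk and Tyro3 encode the other two kinases of the family, Mertk being the one macrophages use most for dying cells. Mertk values were 4.19, 4.67 and 4.61 in CDP, 4.64 and 4.30 in pre-CD4 DCs, 4.45 and 4.37 in pre-CD8 DCs, 4.48, 4.64 and 5.10 in CD24 DCs, and 4.94 and 5.12 in CD172a DCs. Both CD172a DC arrays were above all marrow arrays, while CD24 array 3 lay between them. The Mertk means of all populations but CD172a DC lie below every array median, and the detection level is not known. The largest difference, that of CD172a over pre-CD8 DCs, was 0.62 ± 0.25 and was not called (limma adjusted p = 0.159).

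Tyro3 values were 4.15, 4.68 and 4.42 in CDP, 4.18 and 4.47 in pre-CD4 DCs, 4.22 and 4.72 in pre-CD8 DCs, 3.97, 4.76 and 4.83 in CD24 DCs, and 5.41 and 4.31 in CD172a DCs. CD172a array 1 was the highest of the 12, while CD172a array 2 lay within the range of each of the 4 other populations. The Tyro3 means of all populations lie below every array median, and the detection level is not known. Neither gene was called in any of the 10 pairs of populations, and no neighbours in their orders were separated. The 95% interval of the CD24 minus CD172a difference was -0.29 ± 0.50 for Mertk and -0.34 ± 0.73 for Tyro3, so differences of about that width are not resolved by these arrays.

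Havcr2 encodes TIM-3, a receptor that binds phosphatidylserine and is also known as an inhibitory receptor of T cells. Its values were 4.89, 4.49 and 4.88 in CDP, 4.23 and 4.51 in pre-CD4 DCs, 5.28 and 6.92 in pre-CD8 DCs, 9.82, 9.91 and 9.65 in CD24 DCs, and 9.08 and 9.34 in CD172a DCs. All 5 spleen arrays were above all marrow arrays, and both pre-CD8 arrays were above the other marrow arrays. Havcr2 was higher in CD172a than in pre-CD4 DCs, by 4.84 ± 0.39 (28.6-fold, limma adjusted p = 4.8e-06), and higher in CD24 than in pre-CD8 DCs, by 3.69 ± 0.36 (12.9-fold, adjusted p = 3.17e-05). Against CDP it was higher by 5.04 ± 0.32 in CD24 DCs (adjusted p = 1.84e-07) and by 4.46 ± 0.36 in CD172a DCs (adjusted p = 2.21e-06). The CDP and pre-CD4 means of Havcr2 lie below every array median, and the detection level is not known. The fold against pre-CD4 DCs is therefore that of the deposited values only. The 2 spleen populations did not overlap but were not separated by the test (0.59 ± 0.36, adjusted p = 0.506).

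Among the marrow populations Havcr2 was higher in pre-CD8 DCs than in CDP by 1.35 ± 0.36 (limma adjusted p = 0.047). The 2 pre-CD8 arrays differed by more than this, at 5.28 and 6.92. The difference was 2.17 without pre-CD8 array 1 and 0.53 (adjusted p = 0.471) without pre-CD8 array 2. It also missed the threshold without CDP array 1 (1.42, 0.0946), 2 (1.22, 0.149) or 3 (1.41, 0.0988), and after quantile normalization (1.29, 0.0563). Without an array of another population the difference stayed at 1.35 but missed the threshold in the smaller fit, for CD24 array 2 (0.0702) or 3 (0.0535), either CD172a array (0.0679) or either pre-CD4 array (0.0635). The difference between pre-CD8 and pre-CD4 DCs was 1.73 ± 0.39 and not called (adjusted p = 0.0765), but it was called without pre-CD8 array 1 (2.55, adjusted p = 0.000803) and, at the same size, with dim genes left out (0.0496). In the order CD24 (9.79 ± 0.13), CD172a (9.21 ± 0.18), pre-CD8 DC (6.10 ± 1.16), CDP (4.75 ± 0.23) and pre-CD4 DC (4.37 ± 0.20), the first pair and the last pair were not separated. The other 6 calls, of the 7 that Havcr2 had in 10 pairs, were kept without any single array.

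Timd4 encodes TIM-4, a phosphatidylserine receptor known from resident macrophages. Its values were 4.40, 4.64 and 4.64 in CDP, 4.54 and 4.92 in pre-CD4 DCs, 4.60 and 4.95 in pre-CD8 DCs, 5.37, 5.98 and 6.09 in CD24 DCs, and 5.85 and 5.61 in CD172a DCs. All 5 spleen arrays were above the 7 marrow arrays, and the 2 spleen populations overlapped. The marrow group means of Timd4 lie below every array median, and the detection level is not known. Timd4 was higher in CD24 DCs than in CDP (1.25 ± 0.22, limma adjusted p = 0.000923), pre-CD4 DCs (1.08 ± 0.24, 0.00943) and pre-CD8 DCs (1.04 ± 0.24, 0.0199). It was higher in CD172a DCs than in CDP (1.17 ± 0.24, 0.00332), pre-CD4 DCs (1.00 ± 0.27, 0.0245) and pre-CD8 DCs (0.96 ± 0.27, 0.0379).

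The 3 marrow populations were not separated from each other in Timd4, and the differences of both spleen populations from CDP were kept without any single array. The difference between CD24 and pre-CD8 DCs was lost without CD24 array 2 (0.96, limma adjusted p = 0.0714) or 3 (0.90, 0.0651) or pre-CD8 array 1 (0.86, 0.267), and that between CD24 and pre-CD4 DCs without pre-CD4 array 1 (0.89, 0.147). That between CD172a and pre-CD4 DCs was lost without CD172a array 1 (0.88, 0.174) or 2 (1.12, 0.0577) or pre-CD4 array 1 (0.81, 0.223). That between CD172a and pre-CD8 DCs was lost without CD172a array 1 (0.84, 0.236) or 2 (1.08, 0.0811), or pre-CD8 array 1 (0.78, 0.284) or 2 (1.14, 0.0558), and at an unchanged 0.96 without CDP array 2 (0.0566) or 3 (0.0591).

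Mfge8 encodes the secreted protein that links phosphatidylserine to integrins of the phagocyte. Its values were 7.21, 6.63 and 6.81 in CDP, 6.74 and 6.00 in pre-CD4 DCs, 6.16 and 5.80 in pre-CD8 DCs, 5.19, 5.49 and 6.04 in CD24 DCs, and 5.93 and 5.56 in CD172a DCs. It was the 1 member with its highest mean in CDP, and every spleen array was below every CDP array. Mfge8 was lower in CD24 DCs than in CDP by -1.32 ± 0.26 (limma adjusted p = 0.00274) and lower in CD172a DCs than in CDP by -1.14 ± 0.30 (adjusted p = 0.013). The order was CDP, pre-CD4, pre-CD8, CD172a and CD24 DC, with no neighbours separated, and against CDP the differences were -0.51 ± 0.30 in pre-CD4 DCs (adjusted p = 0.492) and -0.91 ± 0.30 in pre-CD8 DCs (0.118). The difference of CD24 DCs was kept without any single array. That of CD172a DCs was lost without CD172a array 2 (-0.96, 0.114) or CDP array 1 (-0.98, 0.0525), and the difference between CD24 and pre-CD4 DCs was called without CD24 array 3 (-1.03, 0.043).

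**Figure D2:**
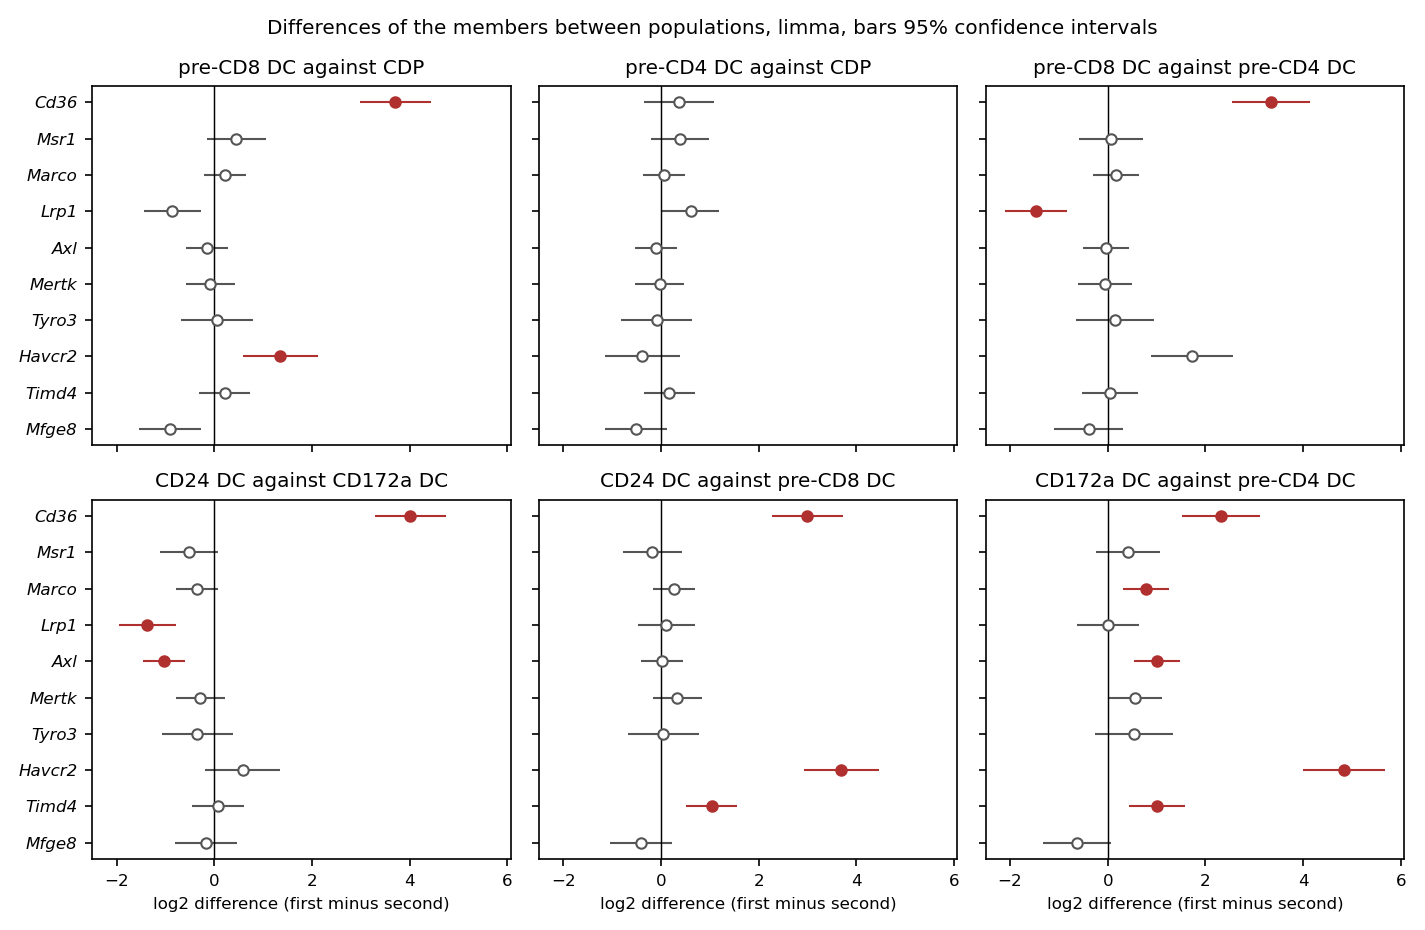
Log2 difference of each of the 10 genes in the comparisons of progenitors, of mature populations and of each mature population with its progenitor, with the 95% interval of the fit, filled points marking a limma adjusted p under 0.05. Cd36 differs in all of them but pre-CD4 DC against CDP, and Havcr2 differs most in CD172a DC against pre-CD4 DC, at 4.84.

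Comparison by comparison, pre-CD8 DCs differed from CDP in 2 of the 10 genes, Cd36 and Havcr2, both higher (in the fit blocked on replicate number Lrp1 was called lower as well, at -0.83), where 4.77% of all genes were called by limma in either direction, 2.29% higher and 2.47% lower. The median difference of the 10 was 0.13, beside 0.03 for all genes. Of 57 measured genes of a wider list of 62 genes of scavenging and dying-cell uptake, 4 were higher and 3 lower, with a median of 0.03. The higher ones were Anxa1 (2.06 ± 0.31, adjusted p = 0.00146), which encodes an annexin exposed on dying cells, the scavenger receptor genes Cxcl16 (1.72 ± 0.34, 0.00946) and Olr1 (1.23 ± 0.29, 0.0251), and Cd68 (1.51 ± 0.24, 0.00175), a lysosomal glycoprotein gene. The lower ones were the lipid receptor gene Cd300lb (-1.84 ± 0.24, 0.000412), the integrin gene Itgb5 (-0.94 ± 0.24, 0.0365) and Dock1 (-0.85 ± 0.20, 0.0289), which encodes an activator of Rac in engulfment. Anxa1, Cd68 and Cd300lb were called in all 17 alternatives. Cxcl16 was lost without pre-CD8 array 2 (0.149), Olr1 without that array or CDP array 1 or 2 (adjusted p up to 0.308), Dock1 without that array or CDP array 1 or 3 (up to 0.31), and Itgb5 in 8 of the 17 (up to 0.359).

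Pre-CD4 DCs differed from CDP in 0 of the 10 genes by limma, and in 1 at an unadjusted p under 0.05, Lrp1 (0.61 ± 0.27, limma adjusted p = 0.304). Of all genes 4.54% were called, 2.32% higher and 2.23% lower, and the median difference was 0.02 for the 10 and 0.02 for all genes. Of the 57 related genes 5 were higher and 2 lower, with a median of 0.17. The 4 largest increases were in Pros1 (1.57 ± 0.32, adjusted p = 0.0124), which encodes the bridging ligand protein S, Cd68 (1.50 ± 0.24, 0.00236), the cholesterol transport gene Npc1 (1.08 ± 0.24, 0.0202) and the engulfment adaptor gene Elmo2 (1.06 ± 0.24, 0.0211). Cd300lb (-1.11 ± 0.24, 0.0161) and Calr (-0.90 ± 0.20, 0.0195), the calreticulin gene, were lower. Each of the 7 was lost without at least 1 of the CDP or pre-CD4 arrays. Cd68 was lost without pre-CD4 array 2 (0.0588), and Pros1 without either pre-CD4 array or CDP array 1 (up to 0.132). Npc1 was lost without either pre-CD4 array or CDP array 1 or 3 (up to 0.179), and Elmo2 without either pre-CD4 array or CDP array 1 or 2 (up to 0.25). Cd300lb was lost without pre-CD4 array 2 or CDP array 2 or 3 (up to 0.229), and Calr without any of the 5 arrays (up to 0.216).

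Pre-CD8 and pre-CD4 DCs, the 2 committed progenitors, differed in 1 higher gene (Cd36) and 1 lower gene (Lrp1) of the 10, beside 0.703% of all genes (0.383% higher and 0.32% lower), and the median difference was 0.05 beside 0.01. Of the 57 related genes 0 were higher and 2 lower by limma, and 3 were higher and 8 lower at an unadjusted p under 0.05, with a median of -0.14. Pros1 was lower in pre-CD8 DCs by -2.11 ± 0.35 (adjusted p = 0.0109) and Dock1 by -1.09 ± 0.22 (0.0428). Pros1 was lost without any 1 of the 4 arrays compared (up to 0.117). Dock1 was lost in 10 of the 17 alternatives (up to 0.451), among them without pre-CD8 array 2, either pre-CD4 array, any CDP array, either CD172a array or CD24 array 2.

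CD24 DCs differed from CD172a DCs in 1 higher gene (Cd36) and 2 lower genes (Axl and Lrp1) of the 10, beside 5.59% of all genes (3.21% higher and 2.37% lower), with a median of -0.32 beside -0.01. Of the 57 related genes 5 were higher and 3 lower, with a median of -0.09. The 4 largest increases were in Anxa1 (1.93 ± 0.31, limma adjusted p = 0.00214), Npc2 (1.84 ± 0.20, 0.000109), which encodes a lysosomal cholesterol carrier, Calr (1.40 ± 0.20, 0.000782) and the lipoprotein receptor gene Scarb1 (0.93 ± 0.21, 0.0164). Lower were the mannose receptor gene Mrc1 (-1.69 ± 0.36, 0.0127), the phosphatidylserine receptor gene Cd300lf (-1.61 ± 0.22, 0.000525) and the integrin gene Itgb3 (-1.03 ± 0.23, 0.0154). Npc2, Calr and Cd300lf were called in all 17 alternatives. Anxa1 was lost without CD172a array 1 (0.0549), Mrc1 without CD172a array 2 (0.162), and Scarb1 (up to 0.167) and Itgb3 (up to 0.142) without either CD172a array.

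CD24 DCs differed from pre-CD8 DCs, their lineage's progenitor, in 3 higher genes (Cd36, Havcr2 and Timd4) and 0 lower genes of the 10, beside 6.31% of all genes (2.65% higher and 3.66% lower). The median was 0.19 beside 0.05. Of the 57 related genes 3 were higher and 4 lower, with a median of 0.04. Higher were Cxcl16 (2.38 ± 0.34, limma adjusted p = 0.000594), the lysosomal lipase gene Lipa (1.43 ± 0.27, 0.00554) and the lipid-sensing nuclear receptor gene Pparg (1.16 ± 0.27, 0.0199). Lower were Anxa1 (-1.64 ± 0.31, 0.0053), the GTPase gene Rac2 (-1.36 ± 0.26, 0.00497), the haemoglobin scavenger receptor gene Cd163 (-1.24 ± 0.25, 0.00753) and Elmo2 (-1.16 ± 0.24, 0.00845). All but Cxcl16 were lost without pre-CD8 array 1, at adjusted p from 0.0571 (Anxa1) to 0.307 (Pparg), and Pparg also without CD24 array 2.

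CD172a DCs differed from pre-CD4 DCs in 5 higher genes (Havcr2, Cd36, Axl, Timd4 and Marco) and 0 lower genes of the 10, beside 12.7% of all genes (4.7% higher and 8.02% lower). The median difference of the 10 was 0.68 beside 0.09. Without single arrays the count of called members ran from 2 to 5. Of the 57 related genes 7 were higher and 12 lower, with a median of -0.03. The engulfment signalling genes had 1 higher and 5 lower of 13, the other scavenger receptors 3 and 3 of 15, the bridging and eat-me ligands 2 and 3 of 9, the other receptors of dying cells 1 and 0 of 10, and the genes of cholesterol export and digestion 0 and 1 of 10. The 4 largest increases were in Cxcl16 (2.87 ± 0.37, limma adjusted p = 0.000214), Cd300lf (1.54 ± 0.24, 0.000815), the complement gene C1qb (1.39 ± 0.28, 0.00534) and Mrc1 (1.38 ± 0.39, 0.034). The 4 largest decreases were in Pros1 (-2.16 ± 0.35, 0.00119), Anxa1 (-2.09 ± 0.34, 0.00126), Npc2 (-1.83 ± 0.22, 0.000114) and Cd163 (-1.62 ± 0.27, 0.00146). The 4 decreases, Cxcl16 and Cd300lf were called in all 17 alternatives. C1qb was lost without pre-CD4 array 1 (0.0708), and Mrc1 without that array or CD172a array 2 (up to 0.312).

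Whether the difference between the 2 lineages itself changed from marrow to spleen was tested as the CD24 minus CD172a difference less the pre-CD8 minus pre-CD4 difference. By limma 0 of the 10 genes were called, beside 1.03% of all genes (0.5% higher and 0.532% lower), and 2 had an unadjusted p under 0.05. These were Axl (-0.99 ± 0.29, limma adjusted p = 0.171) and Havcr2 (-1.14 ± 0.53, limma adjusted p = 0.51). The Axl lineage difference was -1.02 in spleen and -0.03 in marrow. Without pre-CD8 array 1, Havcr2 was called (-1.97, adjusted p = 0.0254). The median over the 10 was -0.36 beside -0.01. Of the 57 related genes 1 was called, Npc2 (1.83 ± 0.30, adjusted p = 0.00828), which was higher in CD24 than in CD172a DCs in spleen (1.84), while the marrow progenitors differed by 0.01, and the call was lost without pre-CD4 array 1 (0.0639).

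**Figure D3:**
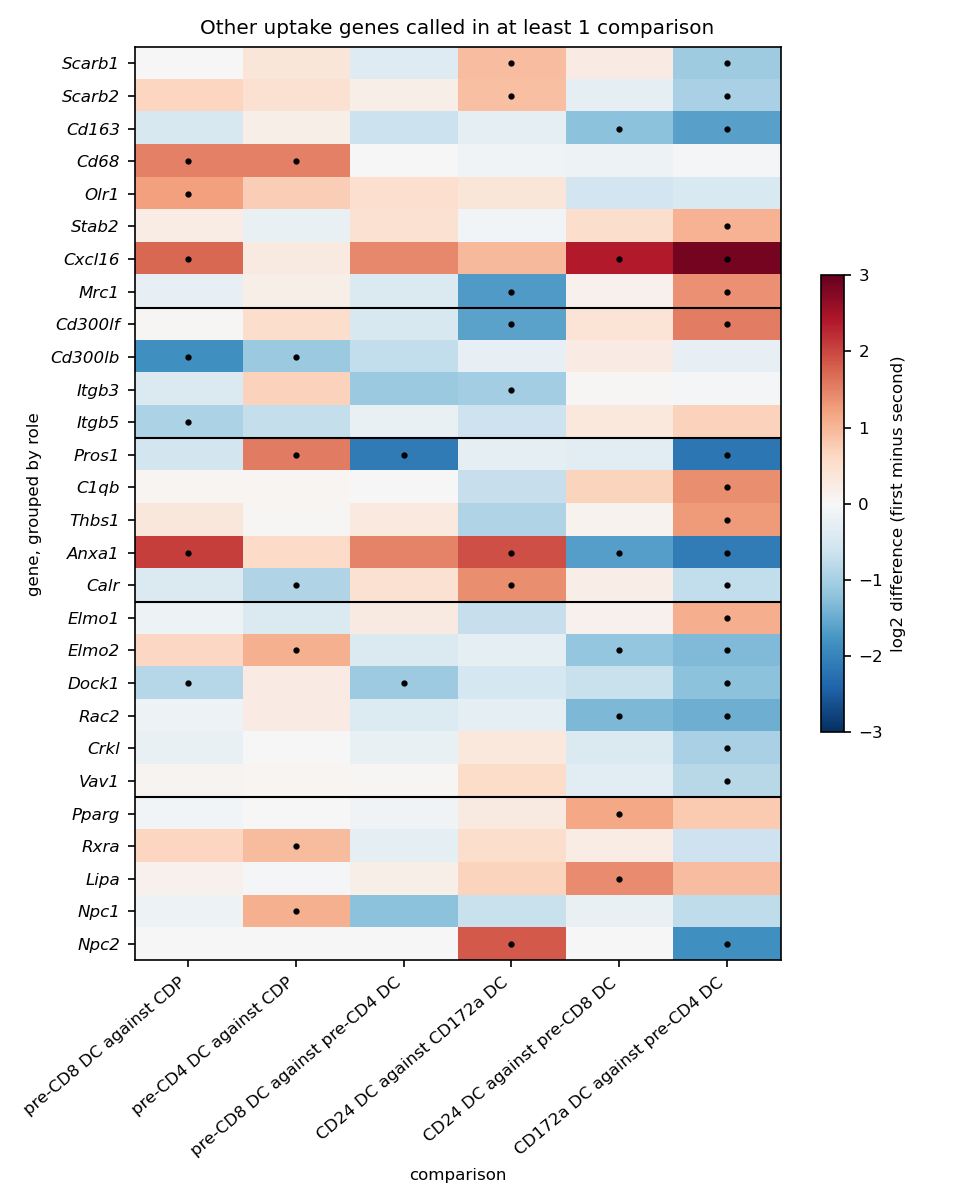
Log2 differences of the 28 related genes called in at least 1 of the comparisons shown, genes on the vertical axis by role and comparisons on the horizontal axis, with the colour scale in log2 units and dots marking a limma adjusted p under 0.05. Cxcl16 is higher in pre-CD8 DCs than in CDP and higher again in CD24 DCs, and the column of CD172a DC against pre-CD4 DC holds the most dots, 7 for higher and 12 for lower genes.

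Set against CDP, with which both share the same 3 arrays, the mature populations gave more calls. CD24 DCs had 3 higher (Cd36, Havcr2 and Timd4) and 2 lower genes (Mfge8 and Lrp1) of the 10, beside 21.2% of all genes (8.32% higher and 12.9% lower), and CD172a DCs had 5 higher (Cd36, Havcr2, Timd4, Axl and Marco) and 1 lower (Mfge8), beside 22.8% (8.68% higher and 14.2% lower). Median differences were 0.27 in CD24 DCs, beside 0.12 for all genes, and 0.82 in CD172a DCs, beside 0.13. Across lineages, CD24 DCs differed from pre-CD4 DCs in 3 higher (Cd36, Havcr2 and Timd4) and 1 lower gene (Lrp1), beside 11.4% of all genes (4.44% higher and 6.94% lower), and CD172a DCs from pre-CD8 DCs in 4 higher genes (Havcr2, Lrp1, Axl and Timd4), beside 9.41% (3.48% higher and 5.94% lower). Over all 10 pairs of populations, 34 of the 100 tests of members were called, beside 9.94% of the tests of all genes, and 7 of the 10 members had at least 1 called pair, beside 33.7% of all genes. Msr1, Mertk and Tyro3 had none. Of the 40 neighbouring steps in the members' orders of levels, 7 were called, and 3 to 6 when single arrays were left out.

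Markers of other spleen cells moved with some of these differences. The mean log2 value of 11 red pulp macrophage markers was 4.78 to 5.01 in CDP, 4.98 to 5.12 in pre-CD4 DCs, 4.85 to 5.34 in pre-CD8 DCs, 5.47 to 5.85 in CD24 DCs and 6.41 to 6.50 in CD172a DCs. Summed over the 11 genes this was 52.6 to 55.1, 54.7 to 56.4, 53.3 to 58.8, 60.2 to 64.4 and 70.6 to 71.5. Both spleen populations were thus above the marrow arrays and CD172a DCs were highest, as were the CD172a DC arrays of Axl. In CD172a against pre-CD4 DCs 7 of the 11 were higher by limma and 1 was lower, beside 4.7% and 8.02% of all genes. Higher were Adgre1 (3.76 ± 0.30), a macrophage surface marker gene, the red pulp macrophage transcription factor gene Spic (3.22 ± 0.23, from 4.42 to 7.64), Vcam1 (2.39 ± 0.35), the haem oxygenase gene Hmox1 (2.07 ± 0.24), the ferroportin gene Slc40a1 (2.02 ± 0.33), C1qb and Cd5l (1.14 ± 0.24), and Cd163 was lower. In CD24 against CD172a DCs 0 of the 11 were higher and 2 were lower, Adgre1 (-3.75 ± 0.28) and Cd5l (-0.99 ± 0.22). Of all genes 3.21% were higher and 2.37% lower. At an unadjusted limma p under 0.05, 7 of the 11 were lower and 1 was higher. In all, 10 had a difference below 0, and the median was -0.65 beside -0.01 for all genes. Cd163 and the 3 C1q genes of this list are also among the 57 related genes. Between the 2 spleen populations the list was lower in CD24 DCs and Cd36 was 4.02 higher in them. The part of red pulp macrophages in that difference was not tested. Their part in the differences of Axl, Marco, Timd4, Havcr2 and Cd36 between spleen and marrow was not tested either.

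The 3 marginal zone macrophage markers had mean log2 values of 3.81 to 4.08 in CDP, 5.35 to 5.46 in pre-CD4 DCs, 4.43 to 4.47 in pre-CD8 DCs, 4.55 to 4.65 in CD24 DCs and 4.17 to 4.53 in CD172a DCs. The pre-CD4 level came from 1 gene, Cd209d, at 8.30 there and 3.55 in CDP, while Cd209b and Siglec1 were not called in either comparison of pre-CD4 DCs with CDP or CD172a DCs. The part of marginal zone macrophages in the Marco values was not tested. The 7 neutrophil markers had means of 5.84 on pre-CD8 array 1 and 9.23 on pre-CD8 array 2, the highest of the 12 arrays. Cd36 (6.37 and 7.84) and Havcr2 (5.28 and 6.92) were higher on array 2 as well. On CDP arrays 1, 2 and 3 the neutrophil mean was 5.58, 7.76 and 7.54. Cd36 was at 3.20, 3.36 and 3.64 on them and Havcr2 at 4.89, 4.49 and 4.88. On the CD24 DC arrays it was 4.65, 6.97 and 4.83, with Cd36 within 10.07 to 10.13. CDP and CD24 DCs are other populations, so these values do not decide the gap between the pre-CD8 arrays. The part of neutrophil RNA in that gap was not tested. The 7 platelet markers ran from 4.48 to 4.69 in CDP, 4.66 to 4.78 in pre-CD4 DCs, 4.77 to 5.11 in pre-CD8 DCs, 4.77 to 5.54 in CD24 DCs and 4.93 to 5.04 in CD172a DCs. The 3 measured erythroid markers lay between 4.52 and 5.23 on all 12 arrays.

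The 7 monocyte markers had means of 7.64 to 8.27 in CDP, 7.73 to 8.15 in pre-CD4 DCs, 6.95 to 7.71 in pre-CD8 DCs, 5.40 to 5.82 in CD24 DCs and 5.33 to 5.70 in CD172a DCs. Against CDP 4 of the 7 were lower in CD24 DCs and 4 in CD172a DCs, where Mfge8 was lower too. The 6 plasmacytoid DC markers had means of 7.35 to 7.80 in pre-CD4 DCs and of 6.23 to 6.57 in the other populations. The 5 B cell markers had means of 5.12 to 5.34 on the marrow arrays and 5.63 to 5.84 on the spleen arrays. The 4 T cell markers had means of 4.21 to 4.77 in marrow, 4.48 to 5.14 in CD24 DCs and 5.06 to 5.15 in CD172a DCs, and the 5 NK cell markers of 4.44 to 5.27 over all arrays. The part of these cells in the members' differences was not tested.

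**Figure D4:**
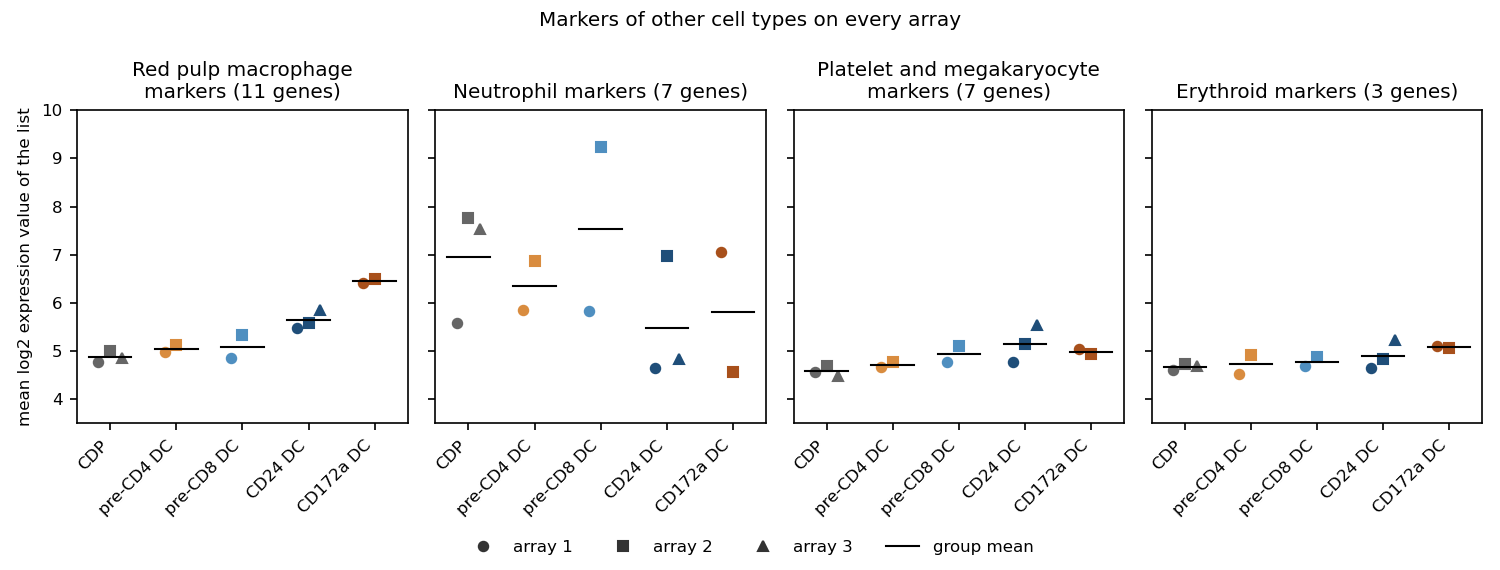
Mean log2 value of the markers of red pulp macrophages, neutrophils and other cell types on each of the 12 arrays, 1 panel per marker list, with populations on the horizontal axis. Red pulp macrophage markers are highest on the 2 CD172a DC arrays (6.41 and 6.50), and neutrophil markers on pre-CD8 array 2 (9.23).

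For Cd36 and Havcr2, the members whose means spanned at least 2 on the log2 scale, the genes with the most similar values over the 12 arrays were sought among 1280 genes with a span as wide. For Cd36 these were Hepacam2 (Pearson r = 0.990), whose group means were 9.28 in CD24 DCs, 6.49 in pre-CD8 DCs, 5.58 in CD172a DCs, 3.60 in pre-CD4 DCs and 3.37 in CDP, and Gpr141b (r = 0.987), with 11.22, 8.60, 6.41, 4.57 and 4.47 in the same order. Gpr141b has a close family copy, so its values may include that gene's signal. For Havcr2 they were Ttc39b (r = 0.993), with 7.35, 5.21, 6.86, 4.25 and 4.37, and Cdon (r = 0.990), with 7.67, 6.11, 7.64, 5.37 and 5.32. These are descriptions over 12 arrays that share their populations and are the best of many genes compared, so no test is given.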

How the data were processed

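Log2 expression values per probe set were used as deposited by the authors, for 35145 probe sets on 12 arrays. Per the labels' protocols, whole-transcriptome amplification used NuGEN Ovation Pico kits, before biotin labelling. How the scans were background-corrected, summarized and normalized is not given in the sources used here, and no detection calls were used. In the platform annotation 23521 probe sets had 1 gene symbol, 1814 had several and 9810 had none; only the first kind was used. For the 1082 of 22180 genes with several probe sets, the one with the highest mean was taken. Symbols were checked against a RefSeq table of GRCm38.p6, and 0 needed updating.

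The test was limma's moderated one (version 3.58.1, lmFit followed by eBayes, in R 4.3.3), checked on simulated data. All 12 arrays entered 1 fit with 5 group means (residual degrees of freedom 7, prior 6.19), so a group left with 1 array is assumed to vary like the others. P-values are two-sided, with a Benjamini-Hochberg threshold of 0.05 over all genes, and no set test was run. The precision is limited by the 2 or 3 arrays per group.

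The 10 genes and the lists of related and marker genes were chosen with earlier results of these data known. Of the 62 related genes 57 were measured. The text names every member, up to 4 called related genes per comparison and direction with the largest difference, and the 2 genes most like each member spanning at least 2 log2 units. Marker genes of other cell types are named where a result touches them. Promoter windows are RefSeq's, matched by symbol for 9 of the 10 genes.

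The labels do not say what the replicate numbers in the titles mark. Deviations from the group means correlated above 0.1 in all 13 same-number pairs of arrays outside CD172a DC (r = 0.10 to 0.42), and at -0.16 to 0.02 in the 8 pairs with it. Deviations within a population cancel out, so those of its arrays are tied, and in populations of 2 arrays they mirror each other. The 13 and 8 pairs are thus not separate evidence, and they do not settle what the number marks. Estimates blocked on that number are given beside results among the 4 other groups where they change a call. The alternatives were quantile normalization, leaving out genes below the 40th percentile of mean level, an intensity trend, the replicate number as a block, testing every probe set, and leaving out each array.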

Additional observations from a re-analysis of the deposited data

How the results depend on the processing

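Of 110 member results (10 genes in 11 contrasts), 34 were called; under 17 alternatives 17 lost the call at least once, 9 gained one and 0 reversed. All calls of Cd36, those of Havcr2 other than pre-CD8 DC against CDP, those of Timd4 in both spleen populations against CDP and that of Mfge8 in CD24 DC against CDP were kept in all 17. Leaving out dim genes removed Msr1, Mertk and Tyro3. After quantile normalization, 1 member instead of 2 was called in pre-CD8 DC against CDP and 1 instead of 2 in pre-CD8 against pre-CD4 DC, where Lrp1 was at -1.36 (adjusted p = 0.0508). Lrp1 was gained in CD172a DC against CDP (0.84, adjusted p = 0.0339). Quantile normalization shifted the median of all genes by -0.07 to 0.03. Outside the leave-one-array-out fits, counts over all genes stayed within 1.5 times.

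Without single arrays, members called ran from 1 to 2 in pre-CD8 DC against CDP, 0 to 0 in pre-CD4 DC against CDP, 1 to 2 in pre-CD8 against pre-CD4 DC, 2 to 3 in CD24 against CD172a DC, 2 to 3 in CD24 against pre-CD8 DC, 2 to 5 in CD172a against pre-CD4 DC and 0 to 1 in the stage contrast, and called neighbouring steps from 3 to 6 (7 with all arrays). All genes called ran, in that order, from 510 (without pre-CD8 array 2) to 1314, 298 (pre-CD4 array 2) to 1302, 58 (pre-CD8 array 2) to 194, 556 (CD172a array 1) to 1461, 571 (pre-CD8 array 1) to 1942, 1234 (pre-CD4 array 1) to 3415 and 99 (pre-CD4 array 1) to 278. These fits have fewer samples.

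With the replicate number as a block, members called were 3, 0, 2, 3, 3, 5 and 0 in the same order, and all genes called 1217, 1172, 182, 1441, 1319, 3528 and 292, with 7 neighbouring steps. The block added Lrp1 in pre-CD8 DC against CDP (-0.83, adjusted p = 0.0303) and in CD172a DC against CDP (0.65, 0.0274), Marco in CD24 DC against CDP (0.49, 0.0346) and Mertk in CD172a DC against CDP (0.66, 0.0421), and no member lost a call. Same-number deviations did not correlate above 0.1 in pairs with CD172a DC. These Lrp1 and Mertk gains in that population thus come from a block that may not apply to it. Lrp1 in CD172a DC against CDP was also called after quantile normalization, without a block (0.84, adjusted p = 0.0339).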
